A study of Mus musculus with 6 samples.

Results

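The transforming growth factor beta (TGF-β) superfamily was described here through 43 genes in growth plate cartilage of control and Idh1 mutant mice at E18.5, late in gestation. The genes were taken by name from the ligands, secreted antagonists, receptors, Smads and direct Id targets of the BMP, GDF, activin and TGF-β branches. They comprised 3 TGF-β ligands, 7 BMP ligands, 6 GDF ligands, 2 activin subunits, 5 secreted antagonists, 4 type I and 4 type II receptors, 1 co-receptor, 5 receptor Smads, 1 common Smad, 2 inhibitory Smads and 3 Id genes. All 43 were among the 46078 genes listed in the count table, and 42 of them were among the 16813 genes with enough reads to test. Gdf15, a stress-induced ligand, was left untested, with 5 to 10 reads in each library.

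The tissue was cartilage of the distal femur and proximal tibia, and RNA was sequenced from 3 control and 3 mutant libraries. Control animals carried Idh1 LSL/+, a conditional mutant Idh1 allele kept silent by a lox-stop-lox cassette. Mutant animals carried the same allele together with Col2a1-Cre, which recombines it in cells that use the Col2a1 promoter, mainly chondrocytes. Cre was thus present in the mutants alone, and an effect of Cre and an effect of mutant IDH1 cannot be told apart in these groups. IDH1 is a cytosolic metabolic enzyme whose cancer-associated mutants make D-2-hydroxyglutarate, and the comparison asks which transcripts differ when such an enzyme is made in cartilage. The labels name neither animals nor pools behind each library, so p-values measure the spread between these libraries.

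Ligands of this superfamily are secreted dimers that bring type I and type II serine/threonine kinase receptors together, and the activated type I receptor phosphorylates a receptor Smad. The BMP branch uses Smad1, Smad5 and Smad9, whereas TGF-β and activin use Smad2 and Smad3, and all of them enter the nucleus with Smad4. In cartilage, BMP signals are known to promote chondrocyte differentiation and growth, and TGF-β signals are known to restrain hypertrophy.

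Each library held between 23445687 and 30415773 counted reads, and values below are CPM, read counts scaled to library size after TMM scaling, a correction for library composition. A count of 3 reads, taken as the floor, corresponded to between 0.0978 and 0.127 CPM. Mutant replicate 3 stood apart from the other 5 libraries. It held 26356 Xist reads and 0 reads of the Y-linked genes Ddx3y, Kdm5d, Eif2s3y and Uty, whereas the others held 0 to 13 and 3871 to 5449, so sex was not balanced between the groups. Values without this library are given below for Gdf10, for the other members and pathway genes with an unadjusted p under 0.05 and for Inhba, Id3, Amh and Sost. None are given for the cell type markers. Idh1 itself, counted without separating its alleles, was at 37.2, 39.1 and 65.3 CPM in the controls and at 47.5, 47.7 and 56.3 CPM in the mutants. Cartilage was represented by 11 chondrocyte markers, all detected in every library, with Col2a1 between 1921 and 5240 CPM. These 11 genes summed to between 3362 and 7481 CPM. Skeletal muscle markers (6 genes) summed to between 12652 and 19619 CPM and osteoblast markers (6 genes) to between 33919 and 48048 CPM. Both sums, the second mostly Col1a1, exceeded the chondrocyte sum in every library. The libraries were therefore not of cartilage alone, and the levels below are those of mixed tissue.

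The promoters of 3 genes are shown first because each stands for a different result below: Gdf10 was the member whose level fell, Smad6 was the BMP feedback inhibitor with higher values in all mutant libraries, and Id2 was the BMP target with the lowest fold change. Each is the 250 bases before the RefSeq gene start in GRCm38.p6, written 5′ to 3′ on the gene's own strand. They lie at chr14:33923337-33923586 on the plus strand for Gdf10, at chr9:64022060-64022309 on the minus strand for Smad6 and at chr12:25096093-25096342 on the minus strand for Id2. Capitals mark CAGAC, the Smad box, and GGCGCC, a GC-rich element known to be bound by BMP Smads, each searched on both strands.
Gdf10: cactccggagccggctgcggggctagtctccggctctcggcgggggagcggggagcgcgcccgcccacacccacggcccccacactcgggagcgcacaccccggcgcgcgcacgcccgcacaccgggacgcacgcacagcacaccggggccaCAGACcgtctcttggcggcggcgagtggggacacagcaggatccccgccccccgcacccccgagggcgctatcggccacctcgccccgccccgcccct
Smad6: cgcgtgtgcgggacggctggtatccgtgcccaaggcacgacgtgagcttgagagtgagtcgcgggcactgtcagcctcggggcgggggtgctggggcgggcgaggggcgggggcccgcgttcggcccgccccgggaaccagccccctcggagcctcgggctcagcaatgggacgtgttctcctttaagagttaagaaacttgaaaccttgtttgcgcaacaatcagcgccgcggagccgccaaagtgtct
Id2: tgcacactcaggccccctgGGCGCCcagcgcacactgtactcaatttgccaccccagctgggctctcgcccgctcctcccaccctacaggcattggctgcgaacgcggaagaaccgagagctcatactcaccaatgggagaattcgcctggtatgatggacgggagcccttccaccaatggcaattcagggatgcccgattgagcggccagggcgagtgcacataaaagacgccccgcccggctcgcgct
The Gdf10 window held 1 CAGAC, which began 98 bases before the gene start, and the Id2 window held 1 GGCGCC, which began 231 bases before it. The Smad6 window held neither. RefSeq promoter entries matched 29 of the 43 genes, with 35 promoters in all. Of these 35 promoters, 16 held CAGAC (45.7%, against 42.2% of all 32851 promoters) and 8 held GGCGCC (22.9%, against 9.59%). A match describes the letters of the window and is not evidence of binding. GGCGCC is made of G and C alone, and GC content was not matched between these windows and all promoters. Genes with several promoters also count more than once. The higher share of GGCGCC is therefore not read as a result.

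Transcript levels were compared between genes per length, as RPKM, the CPM divided by the exon length in kilobases. In the control libraries the highest mean level among the 43 genes was that of Id3 at 74.8 RPKM. The ligand Tgfb3 followed at 68.9, Id1 at 55.7 and the type II receptor Tgfbr2 at 55.1 RPKM. Id1, Id2 and Id3 encode inhibitors of basic helix-loop-helix factors and are direct BMP targets. Tgfb3 made up 64.9% ± 1.59 (SD, n = 3) of the summed level of the 3 TGF-β ligands in controls and 61.5% ± 1.85 (SD, n = 3) in mutants. This share did not overlap between the groups, at 63.2% to 66.4% in controls and 59.3% to 62.6% in mutants, and was not tested. Among the BMP ligands Bmp4 was the highest in controls, at 16.8 RPKM, and Bmp6 followed at 10.2 RPKM. Among the GDF ligands Gdf10 stood at 22.6 RPKM, above Gdf11 at 5.13 and Gdf5 at 3.80 RPKM. Of the 50-base stretches of Gdf5 transcripts, 39.2% also occurred in the antisense gene Gm15557. Because counting ignored strand, the order of Gdf5 and Gdf11 is not secure. Gdf6 (0.642 RPKM), Gdf7 (0.561 RPKM) and Gdf15 (0.137 RPKM) were the lowest of the ligands named, and Bmp8a and Smad9 were also under 1 RPKM, at 0.720 and 0.751. The antagonists ranged from Chrdl1 at 1.75 RPKM to Fst at 10.6 RPKM. Type I receptors ran from Bmpr1b at 2.66 RPKM to Bmpr1a at 22.9 RPKM, and receptor Smads from Smad9 to Smad5 at 19.5 RPKM, with Smad3 at 16.6 and Smad2 at 12.5 RPKM.

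**Figure D1:**
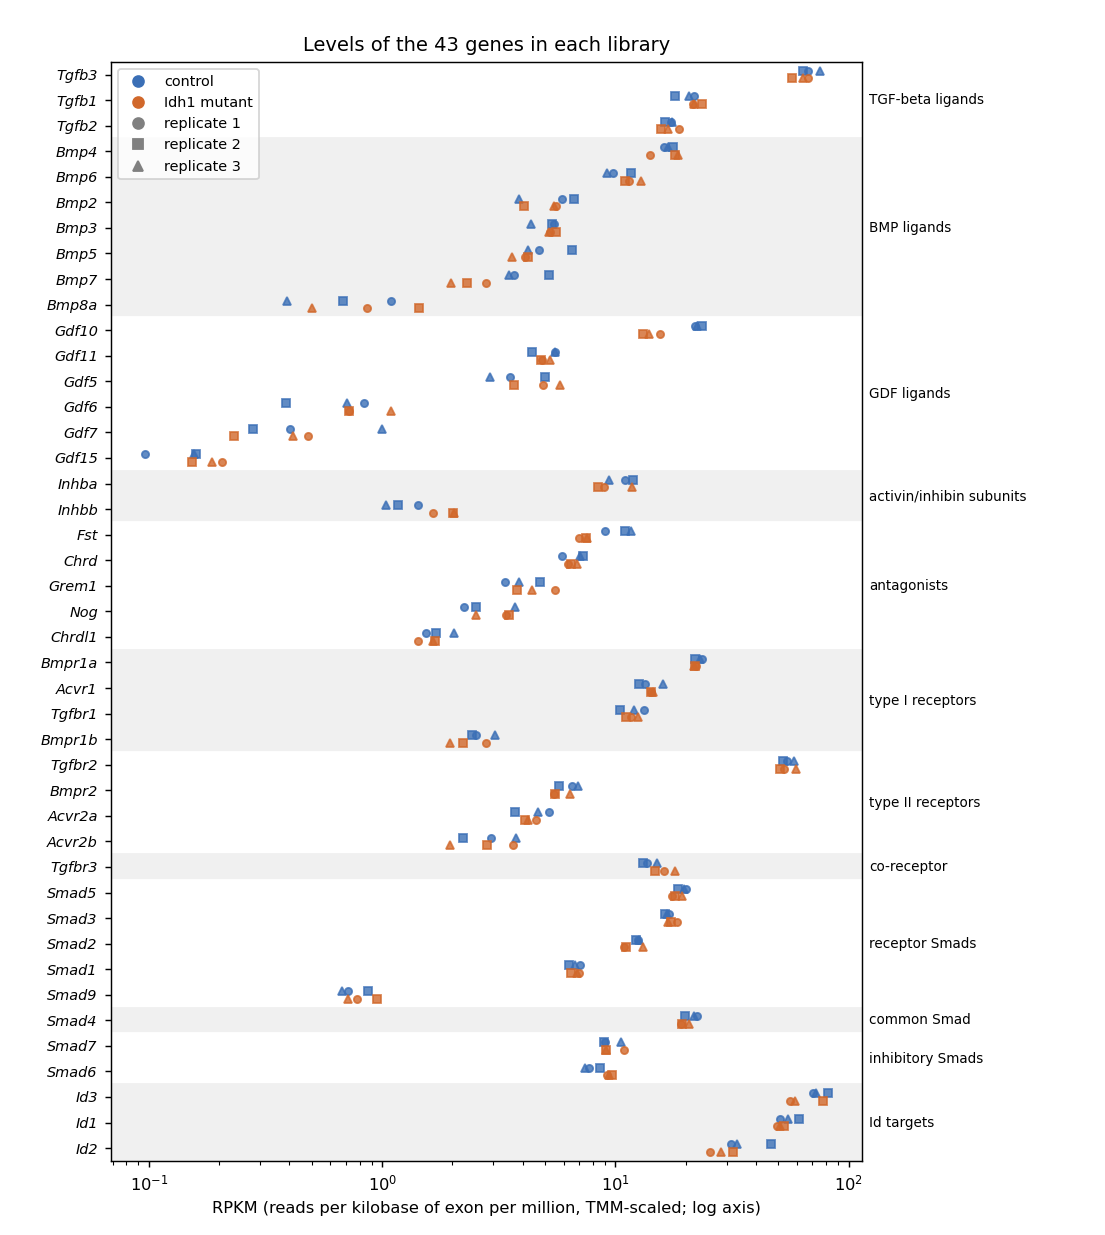
Level of each of the 43 genes in RPKM on a log axis, grouped by role, with 1 point for each of the 3 control and 3 mutant libraries. Control means run from 0.137 RPKM for Gdf15 to 74.8 RPKM for Id3.

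The spread between control libraries differed among the genes. The coefficient of variation was 1.54% for Smad2 and 1.95% for Smad3, the TGF-β and activin effectors, and reached 68.9% for Gdf7, 49.0% for Bmp8a and 35.8% for Gdf6. It was also 27.9% for the joint ligand Gdf5 and 27.9% for the BMP antagonist Nog. Differences between the groups could therefore be resolved more finely for most receptors and Smads than for the low ligands. Standard errors of the log2 fold change reached 0.52 for Gdf7, whereas those of the 5 receptor Smads were at most 0.19.

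Between mutant and control libraries, Gdf10 fell and no other member passed the test. Of the 42 genes tested, 1 (2.38%) had an adjusted p under 0.05 by the quasi-likelihood test of edgeR, adjusted by Benjamini-Hochberg over all 16813 genes, of which 0.190% passed. The share of all genes that passed with lower values in mutants, as Gdf10 did, was 0.137%. DESeq2 passed 1.11% of all genes and limma-voom 0.113%, and with no filter on low counts edgeR passed 0.903%; 3 members passed with DESeq2 and with no filter (Bmp7, Fst and Gdf10 in each) and 1 with limma-voom. At an unadjusted p under 0.05 there were 8 of the 42 (19.0%), against 8.64% of all genes. The members were chosen with earlier results of these data known, so neither this share nor the 2.38% above measures an excess over all genes. Of the 8, 5 had lower estimates in mutants (Bmp5, Bmp7, Gdf10, Fst and Id2; 4.93% of all genes) and 3 had higher ones (Inhbb, Tgfbr3 and Smad6; 3.71% of all genes). The CPM of the groups did not overlap for 6 of 42 (14.3%), which is close to the 14.4% of all genes tested; 4 lay lower in mutants (7.58% of all genes) and 2 lay higher (6.85%). The log2 fold change was below 0 for 25 members (59.5%, against 50.7% of all genes), with a median of -0.05 and a range of -0.81 to 0.65. For 28 of the 42 its size was under 0.2. Because the RNA came from whole tissue, fewer cells of a type and less RNA per cell cannot be told apart for any value given here.

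**Figure D2:**
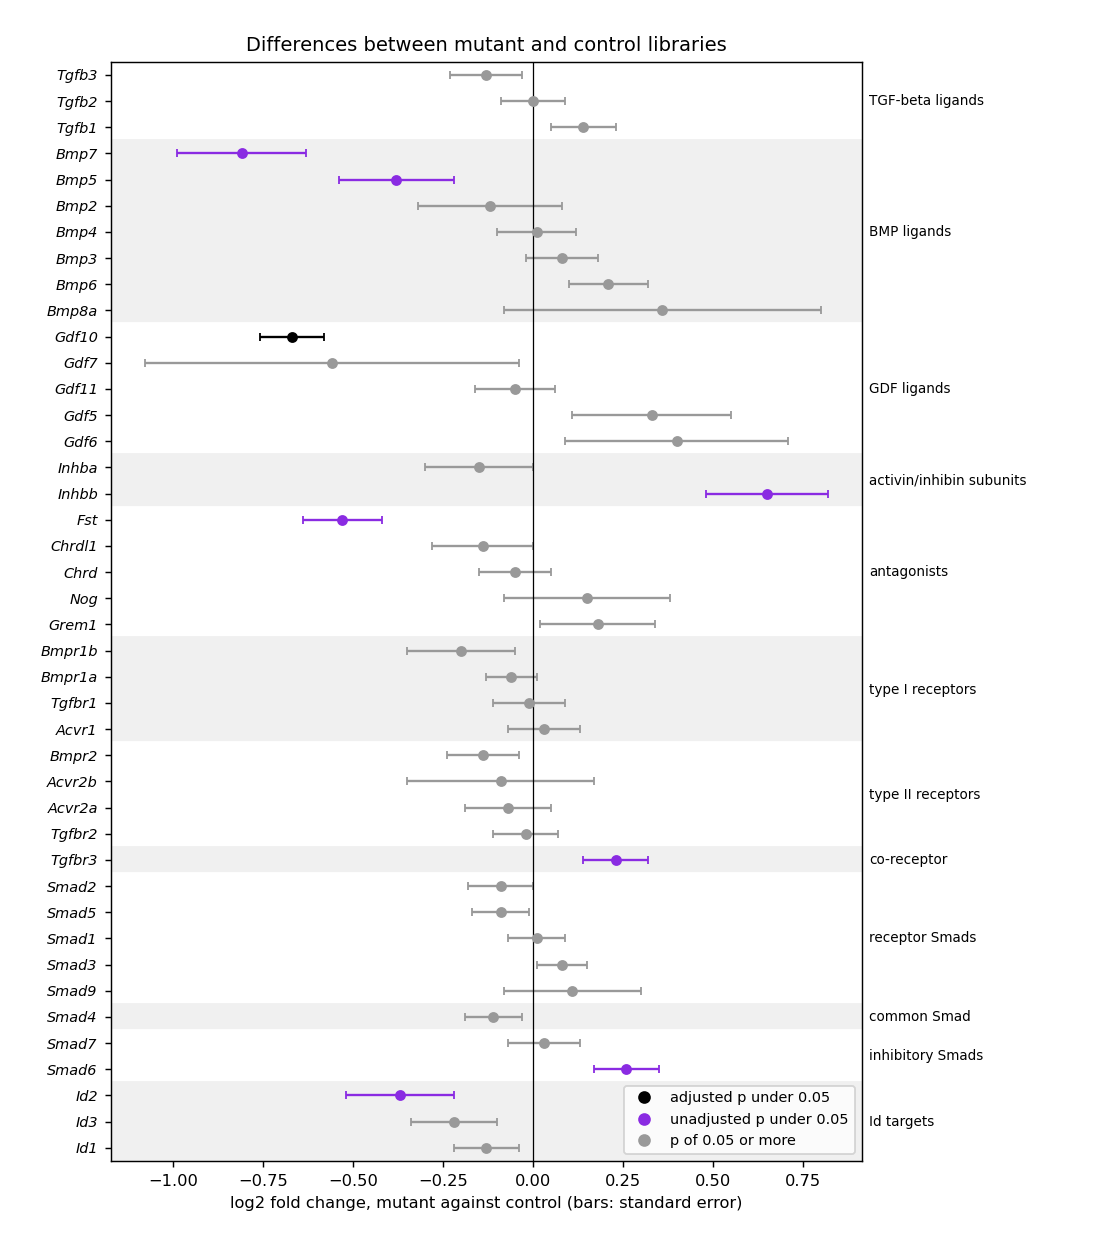
Log2 fold change, mutant minus control, of the 42 genes tested grouped by role; bars are the standard error, and colours mark the adjusted and unadjusted p from edgeR. The values span -0.81 (Bmp7) to 0.65 (Inhbb), and Gdf10 at -0.67 was the member with an adjusted p under 0.05.

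Gdf10 (ENSMUSG00000021943, chr14:33923587-33935280, plus strand, GRCm38), also known as Bmp3b, encodes a secreted ligand close to Bmp3. Its level was 54.9, 59.2 and 56.2 CPM in control replicates 1 to 3 and 39.0, 32.8 and 35.1 CPM in mutant replicates 1 to 3. All mutant libraries were below all controls, and the distance between the groups exceeded the range within either. The means were 56.8 ± 2.21 and 35.6 ± 3.12 CPM (SD, n = 3 each), so the mutant mean was 37.2% lower. The log2 fold change was -0.67 (SE 0.09, 95% interval -0.87 to -0.48, edgeR adjusted p = 0.0355, Benjamini-Hochberg), and by unadjusted p Gdf10 ranked 8 among all genes. The underlying reads numbered 1548, 1817 and 1557 in controls and 921, 809 and 1019 in mutants. Without mutant replicate 3 the log2 fold change was -0.66, with an edgeR adjusted p of 0.108. Leaving out any of the 6 libraries gave log2 fold changes from -0.74 to -0.61, with adjusted p from 0.0564 to 0.176, so the call did not hold with 5 libraries.

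Bmp3, the closest relative of Gdf10 among the members, gave no such difference in level. It was at 40.5, 39.7 and 32.1 CPM in controls and at 38.9, 41.3 and 38.3 CPM in mutants. The groups overlapped, and the 95% interval of its log2 fold change, -0.15 to 0.31, did not reach the value of Gdf10. Summed per length, Bmp3 and Gdf10 came to 27.7 ± 1.15 RPKM in controls and 19.6 ± 1.12 RPKM in mutants (SD, n = 3 each; not tested). The share of Bmp3 in that sum was 18.2% ± 1.90 in controls and 27.4% ± 2.31 in mutants, without overlap. Since Bmp3 itself was level, this share restates the lower Gdf10 values and is no separate result. The other GDF ligands tested gave wider intervals. Gdf5, which acts in joint formation, was at 6.71 to 11.5 CPM in controls and 8.56 to 13.5 CPM in mutants, and Gdf6 at 1.37 to 2.94 and 2.54 to 3.86 CPM. Gdf7 was at 0.391 to 1.41 and 0.325 to 0.677 CPM, and its 95% interval of -1.73 to 0.60 left a change in either direction unresolved. Gdf11, a ligand of the activin type, was at 17.8 to 22.5 and 19.5 to 21.3 CPM. The 6 GDF ligands summed to 32.9 ± 0.771 RPKM in controls and 25.4 ± 2.32 RPKM in mutants (not tested). Gdf10 supplied 68.8% ± 1.07 of the control sum and 56.1% ± 3.27 of the mutant sum, which again follows from its own values.

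Bmp5 and Bmp7 encode relatives of Bmp6 that signal through Smad1, Smad5 and Smad9. Bmp7 (chr2:172868012-172940321, minus strand) was at 14.8, 20.8 and 14.1 CPM in controls and 11.2, 9.29 and 7.95 CPM in mutants. The groups did not overlap, and control replicate 2 lay above the other controls. Its log2 fold change of -0.81 (SE 0.18, 95% interval -1.21 to -0.41) was the most negative among the members and had an unadjusted p of 0.00116 but an edgeR adjusted p of 0.153. Without mutant replicate 3 it was -0.70, and without control replicate 2 it was -0.61. Bmp5 (chr9:75775364-75900310, plus strand) was at 18.9, 26.2 and 17.0 CPM in controls and 16.4, 16.9 and 14.5 CPM in mutants. The groups were separated only narrowly, control replicate 3 lying next to mutant replicate 2. Its log2 fold change was -0.38 (SE 0.16, unadjusted p = 0.0378, edgeR adjusted p = 0.540), and it came to -0.17 without control replicate 2 and -0.31 without mutant replicate 3. Bmp5 also shared 46.0% of its 50-base transcript words with other annotated transcripts, mainly the antisense gene Gm26903, which itself held 3 to 16 reads per library. Reads were counted without regard to strand, so reads of an antisense partner cannot be told from those of the gene.

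The remaining BMP ligands overlapped between the groups. Bmp4, the highest of the BMP ligands per length, was at 35.8, 39.2 and 37.3 CPM in controls and 31.3, 40.2 and 41.4 CPM in mutants. The log2 fold change was 0.01 (SE 0.11, 95% interval -0.24 to 0.26), and its sign was not stable when libraries were left out, running from -0.07 to 0.12. Bmp2 was at 13.7 to 23.7 CPM in controls and 14.4 to 19.9 CPM in mutants. Bmp6, made by prehypertrophic and hypertrophic chondrocytes, was at 22.1 to 28.0 and 26.6 to 31.2 CPM, with a 95% interval of -0.04 to 0.46. Bmp8a was at 0.938 to 2.63 and 1.2048 to 3.45 CPM, with a wide 95% interval of -0.62 to 1.35. Summed per length, the 7 BMP ligands came to 47.5 ± 5.73 RPKM in controls and 46.4 ± 2.09 RPKM in mutants. Within this sum, Bmp7 supplied 8.61% ± 0.922 in controls and 5.12% ± 1.11 in mutants (SD, n = 3 each), with no overlap of the libraries. This share follows from the lower Bmp7 values and is no separate result.

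**Figure D3:**
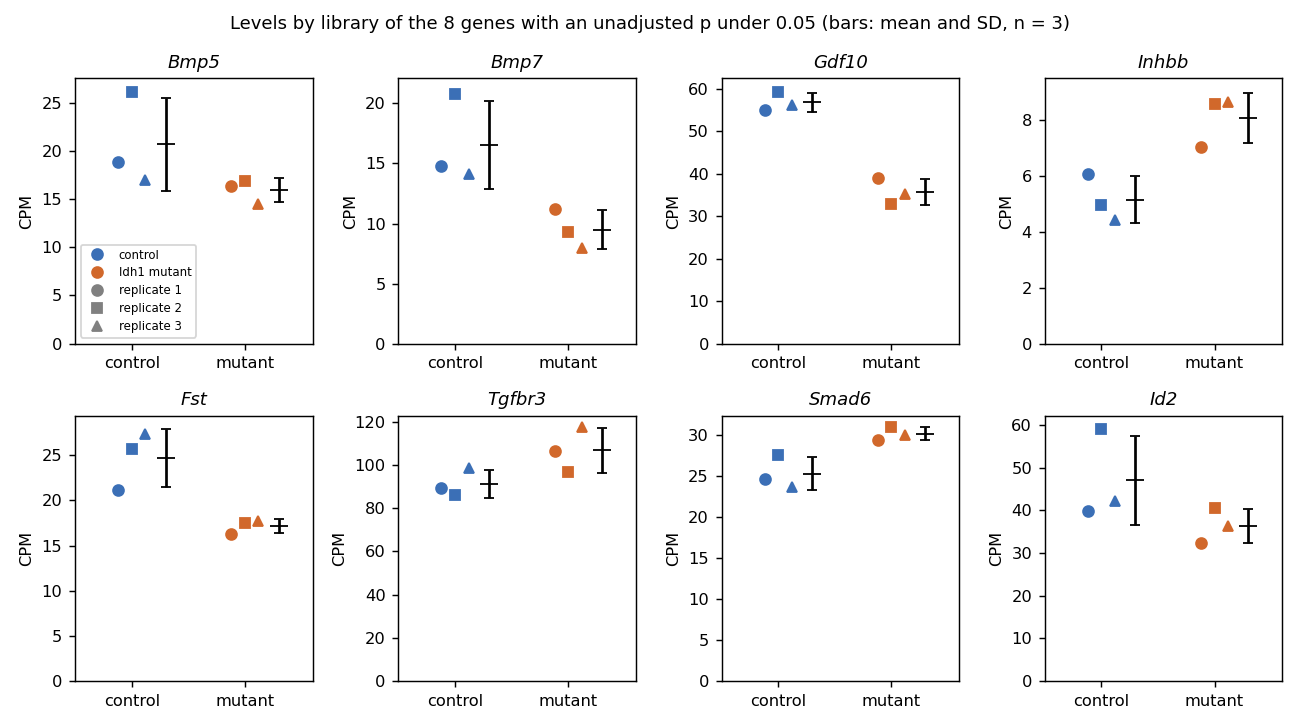
CPM in each library of the 8 members with an unadjusted p under 0.05, with group means and SD (n = 3); point shapes mark replicates 1 to 3. The groups do not overlap for Bmp5, Bmp7, Gdf10, Inhbb, Fst and Smad6, and they overlap for Tgfbr3 and Id2.

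Taken singly, the TGF-β ligands overlapped between the groups, and none had an unadjusted p under 0.05 in edgeR. Tgfb3 was at 228, 216 and 256 CPM in controls and 228, 194 and 216 CPM in mutants. The groups overlapped, and its log2 fold change was -0.13 (SE 0.10, 95% interval -0.35 to 0.08, edgeR adjusted p = 0.779), or -0.06 without control replicate 3. Tgfb1 was at 46.3 to 55.6 and 55.1 to 60.4 CPM, with a 95% interval of -0.06 to 0.34. Tgfb2 was at 94.1 to 102 and 90.7 to 108 CPM, with a 95% interval of -0.19 to 0.19. These intervals bound any difference in the 3 TGF-β ligands to less than the size measured for Gdf10.

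Activins are dimers of the subunits encoded by Inhba and Inhbb, and follistatin, encoded by Fst, binds and neutralises them. Inhbb (chr1:119415465-119422248, minus strand) was at 6.07, 4.95 and 4.44 CPM in controls and 7.03, 8.56 and 8.64 CPM in mutants. All mutant libraries were above all controls. Inhbb had a log2 fold change of 0.65 (SE 0.17, 95% interval 0.28 to 1.02), with an unadjusted p of 0.00323 and an edgeR adjusted p of 0.254, and 0.60 without mutant replicate 3. Inhba, the more abundant subunit per length, was at 21.8, 23.6 and 18.515 CPM in controls and 17.6, 16.6 and 23.4 CPM in mutants. Its groups overlapped, with mutant replicate 3 among the controls, and the log2 fold change was -0.15 (SE 0.15) with all libraries, -0.32 without mutant replicate 3 and -0.05 without mutant replicate 2. Fst (chr13:114452262-114458730, minus strand) was at 21.2, 25.7 and 27.4 CPM in controls and 16.3, 17.5 and 17.7 CPM in mutants. Its groups did not overlap either. The log2 fold change of Fst was -0.53 (SE 0.11, 95% interval -0.78 to -0.27), with an unadjusted p of 0.000965 and an edgeR adjusted p of 0.148, and -0.55 without mutant replicate 3.

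Ratios of these transcripts were also taken within each library. The ratio of Inhba to Inhbb per length was 7.73, 10.2 and 8.96 in controls and 5.39, 4.18 and 5.82 in mutants. The ratio of Fst to the sum of both activin subunits was 0.728, 0.840 and 1.13 in controls and 0.661, 0.719 and 0.548 in mutants. Neither ratio overlapped between the groups, although the second was separated by a small margin, and neither was tested because its genes were picked with their values known. The sum of both subunits itself was 11.97 ± 1.40 RPKM in controls and 11.6 ± 1.95 RPKM in mutants (SD, n = 3 each).

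The BMP antagonists other than Fst overlapped between the groups. Nog, which encodes noggin, was at 3.80 to 6.32 CPM in controls and 4.27 to 5.92 CPM in mutants. Chrd, which encodes chordin, was at 34.4 to 42.3 and 36.6 to 39.9 CPM, with a 95% interval of -0.26 to 0.17. Chrdl1, a chordin relative, was at 10.4 to 13.7 and 9.65 to 11.4 CPM, and Grem1, which encodes gremlin, at 14.0 to 19.8 and 15.7 to 22.8 CPM. Fst supplied 40.9% ± 0.488 of the summed level of the 5 antagonists per length in controls and 31.8% ± 1.89 in mutants (SD, n = 3 each). This share repeats the lower Fst values. The sum itself overlapped, at 25.9 ± 3.33 and 23.1 ± 0.371 RPKM.

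None of the 8 type I and type II receptors had an unadjusted p under 0.05. Bmpr1a, a main BMP type I receptor of cartilage, was at 150, 140 and 146 CPM in controls and 141, 139 and 138 CPM in mutants. A log2 fold change of -0.06 (SE 0.07, 95% interval -0.22 to 0.10) was estimated. Tgfbr2, the TGF-β type II receptor, was at 260, 251 and 281 CPM in controls and 252, 243 and 286 CPM in mutants, and its log2 fold change was -0.02 (SE 0.09, 95% interval -0.22 to 0.19). For both genes the groups overlapped. Bmpr1b, Tgfbr1 and Acvr1 encode the other type I receptors, and the intervals of all 4 type I genes lay within -0.53 to 0.25. Bmpr2, Acvr2a and Acvr2b encode the other type II receptors, whose widest interval, that of Acvr2b at 3.41 to 6.57 CPM over the 6 libraries, was -0.68 to 0.49. The summed type I receptors came to 51.4 ± 3.48 and 50.3 ± 0.756 RPKM, and the summed type II receptors to 69.0 ± 4.94 and 67.3 ± 4.58 RPKM, in controls and mutants respectively.

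Tgfbr3 (chr5:107106570-107289629, minus strand) encodes betaglycan, a co-receptor that presents TGF-β2 and inhibin. It was at 89.1, 86.2 and 98.5 CPM in controls and 106, 96.8 and 118 CPM in mutants. Mutant replicate 2 lay just under control replicate 3, so the groups overlapped. For Tgfbr3 the log2 fold change was 0.23 (SE 0.09, 95% interval 0.02 to 0.44, unadjusted p = 0.0354, edgeR adjusted p = 0.531), and it was 0.15 without mutant replicate 3.

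The receptor Smads and Smad4 were close between the groups. Smad5, the receptor Smad with the highest level per length, was at 149, 138 and 146 CPM in controls and 130, 134 and 143 CPM in mutants, with a log2 fold change of -0.09 (SE 0.08, 95% interval -0.26 to 0.08). Smad4, the partner shared by both branches, was at 83.1, 73.8 and 80.3 CPM in controls and 70.9, 71.9 and 76.8 CPM in mutants, with a log2 fold change of -0.11 (SE 0.08, 95% interval -0.29 to 0.07). Both genes overlapped between the groups. For the 5 receptor Smads the log2 fold changes ran from -0.09 to 0.11. The Smads of the BMP branch (Smad1, Smad5 and Smad9) summed to 26.9 ± 1.04 RPKM in controls and 25.8 ± 0.857 RPKM in mutants, and those of the TGF-β branch (Smad2 and Smad3) to 29.1 ± 0.483 and 29.2 ± 0.744 RPKM (SD, n = 3 each). These are transcript levels, and phosphorylation of the proteins was not measured.

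Smad6 and Smad7 encode inhibitory Smads that are induced by the pathway and feed back on it, Smad6 mainly on the BMP branch. Smad6 (chr9:63953076-64022059, minus strand) was at 24.6, 27.5 and 23.6 CPM in controls and 29.4, 31.0 and 30.1 CPM in mutants. The groups did not overlap. Its log2 fold change was 0.26 (SE 0.09, 95% interval 0.06 to 0.46, unadjusted p = 0.0177), with an edgeR adjusted p of 0.455, and it was 0.26 without mutant replicate 3. Smad7 was at 40.9, 40.5 and 48.0 CPM in controls and 49.1, 41.3 and 41.4 CPM in mutants. Its groups overlapped, and the log2 fold change of 0.03 (SE 0.10) ran from -0.06 to 0.11 when libraries were left out, so no direction was resolved. Summed per length, Smad6 and Smad7 came to 17.4 ± 0.642 RPKM in controls and 19.1 ± 0.804 RPKM in mutants (SD, n = 3 each), without overlap. This sum includes the higher Smad6 values and was not tested.

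The Id genes serve as a readout of BMP signalling, and all 3 had log2 fold changes below 0, none past the adjusted threshold. Id2 (chr12:25093801-25096092, minus strand) was at 39.8, 59.0 and 42.2 CPM in controls and 32.3, 40.5 and 36.2 CPM in mutants. Mutant replicate 2 lay above control replicate 1, and control replicate 2 lay far above the other controls. The log2 fold change was -0.37 (SE 0.15, unadjusted p = 0.0328, edgeR adjusted p = 0.524), and it was -0.17 without control replicate 2 and -0.37 without mutant replicate 3. Id3 was at 126, 146 and 130 CPM in controls and 101, 139 and 106 CPM in mutants, with a log2 fold change of -0.22 (SE 0.12, 95% interval -0.50 to 0.06) that came to -0.16 without mutant replicate 3, -0.13 without mutant replicate 1 and -0.37 without mutant replicate 2. Id1 was at 58.8 to 71.1 CPM in controls and 57.0 to 61.4 CPM in mutants, with a 95% interval of -0.33 to 0.07. In each of the Id genes control replicate 2 was the highest of the 6 libraries. Summed per length, the Id genes came to 168 ± 19.3 RPKM in controls and 144 ± 16.6 RPKM in mutants (SD, n = 3 each), with overlap.

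A second list held 75 other genes of the pathway, of which 66 were tested, and 0 of these had an edgeR adjusted p under 0.05. At an unadjusted p under 0.05 there were 4 (6.06%, against 8.64% of all genes), 2 with lower estimates (Lefty1 and Runx2) and 2 with higher (Acvr1c and Tgfbi), and DESeq2 passed 0 of the list after adjustment. The groups did not overlap for 10 of the 66 (15.2%, against 14.4%). Acvr1c encodes ALK7, a type I receptor for activin B and Nodal. It was at 0.568, 0.587 and 0.397 CPM in controls and 1.10, 1.06 and 1.89 CPM in mutants, that is 11 to 18 and 26 to 55 reads. The groups did not overlap, mutant replicate 3 being the highest, and the log2 fold change was 1.38 (SE 0.36, unadjusted p = 0.00342, edgeR adjusted p = 0.265). Without mutant replicate 3 it was 1.05.

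Among target genes, Tgfbi, which encodes a matrix protein induced by TGF-β, was at 528, 595 and 578 CPM in controls and 650, 613 and 869 CPM in mutants. The estimate of 0.33 on the log2 scale (SE 0.14, edgeR adjusted p = 0.540) was 0.15 without mutant replicate 3. Runx2, a transcription factor of hypertrophic chondrocytes and osteoblasts, was at 45.5, 41.0 and 43.8 CPM in controls and 37.2, 39.9 and 24.4 CPM in mutants. Its log2 fold change of -0.36 (SE 0.16, edgeR adjusted p = 0.563) was -0.17 without mutant replicate 3, so 1 library supplied much of both values. Lefty1, which encodes a Nodal antagonist, was at 3.12, 3.68 and 3.68 CPM in controls and 2.71, 2.07 and 2.79 CPM in mutants, with a log2 fold change of -0.47 (SE 0.21), or -0.55 without mutant replicate 3. Amh, the anti-Müllerian hormone ligand, held 11 to 16 reads per control library and 1 to 11 per mutant library, with a log2 fold change of -1.23 (SE 0.61). That estimate was -2.39 without mutant replicate 3, which had the highest count of the mutants, and -0.81 without mutant replicate 1. The BMP and Wnt antagonist Sost, a product of osteocytes, was at 0.433 to 4.54 and 3.39 to 10.4 CPM with overlap, and its log2 fold change of 1.35 (SE 0.61) was 0.85 without control replicate 3, 0.87 without mutant replicate 2, 1.41 without mutant replicate 3 and up to 2.01 when control replicate 1 was left out. The others named by the same rule had smaller differences: the log2 fold change was -0.24 for the antagonist Nbl1, 0.26 for Lrrc32 and -0.16 for Ltbp1, both of which hold latent TGF-β, -0.18 for the ubiquitin ligase gene Smurf2 and -0.12 for the Smad anchor gene Zfyve9. Single libraries moved 4 of these by over 1.5 times: Lrrc32 came to 0.13 without control replicate 2, Nbl1 to -0.15 and Ltbp1 to -0.09 without mutant replicate 1, and Smurf2 to -0.11 without control replicate 1. Of the 9 genes left untested (Bmp8b, Bmp10, Gdf1, Gdf2, Gdf3, Inhbc, Inhbe, Nodal and Lefty2), all are ligands.

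Some markers of other cell types differed between the groups, and their values are given beside the members. The 5 tendon and ligament markers summed to between 2989 and 3285 CPM in controls and between 2002 and 2339 CPM in mutants, without overlap. Of these 5, Scx, Tnmd, Mkx and Fmod had an unadjusted p under 0.05 with lower values in mutants, and Tnmd fell, with a log2 fold change of -0.81 (edgeR adjusted p = 0.0374), whereas Thbs4 was at 0.02. The 5 erythroid markers summed to between 533 and 1529 CPM in controls, highest in replicate 2, and between 278 and 413 CPM in mutants. The 4 epidermis markers summed to between 9.86 and 19.2 CPM in controls and between 8.36 and 9.44 CPM in mutants. Of the epidermal genes Krt5 fell, with a log2 fold change of -4.46 (edgeR adjusted p = 0.0355), and Krt14 was at or under 0.289 CPM in every library. Krt10 (-0.04, unadjusted p = 0.840 in edgeR) and Trp63 (-0.16, unadjusted p = 0.498) overlapped between the groups. The lower epidermal sum rested on Krt5, since without it the sums, taken after these values were seen, ran from 6.92 to 11.3 CPM in controls and from 7.99 to 9.21 CPM in mutants. The 4 joint and articular markers summed to between 233 and 449 CPM in controls, again highest in replicate 2, and between 225 and 253 CPM in mutants, with overlap. The sums of chondrocyte, skeletal muscle, osteoblast, endothelium, osteoclast and macrophage, and loose connective tissue markers overlapped between the groups, and 0 of the 11 chondrocyte markers passed edgeR's adjusted threshold, with 1, Ucma, at an unadjusted p under 0.05. Most of the osteoblast sum was Col1a1, and without it that sum ran from 318 to 1282 CPM in controls and from 1228 to 1960 CPM in mutants. Within these lists some markers had an unadjusted p under 0.05, none of them past the adjusted threshold. Among osteoblast genes these were Ibsp (log2 fold change 1.32, unadjusted p = 0.0430 in edgeR) and Dmp1 (1.75, unadjusted p = 0.0310), of which Dmp1 did not overlap between the groups. The endothelial gene Kdr (0.25, unadjusted p = 0.00585 in edgeR) and the macrophage gene Csf1r (0.24, unadjusted p = 0.0236) lay higher and the connective tissue gene Thy1 (-0.35, unadjusted p = 0.00872) lower in mutants, each without overlap, and the articular gene Prg4 was at -0.73 (unadjusted p = 0.0205) with overlap. Gdf10, Bmp7, Fst and Bmp5 were lower in all mutant libraries, and so were the tendon and erythroid sums. The same holds for any gene that is lower in every mutant library. The part of other tissues in the members' differences was not tested.

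**Figure D4:**
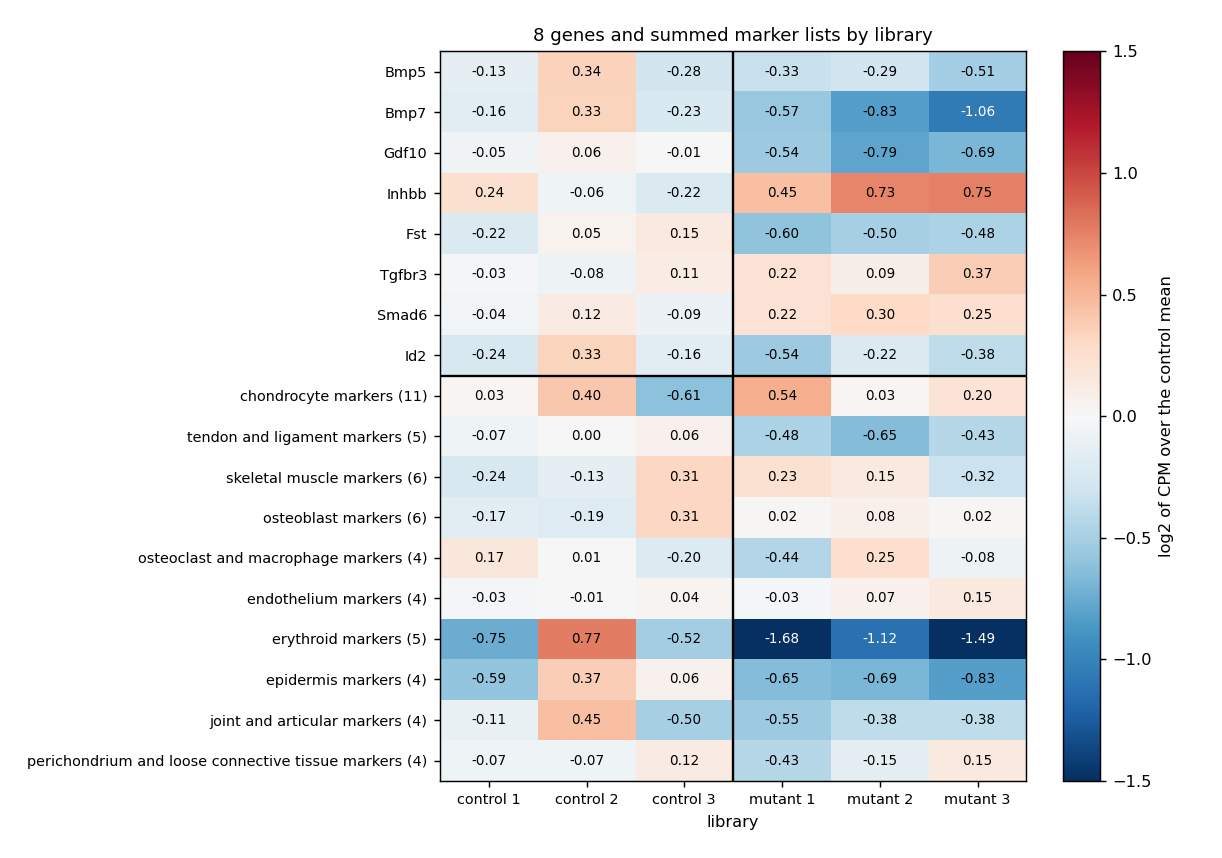
Log2 of the CPM of 8 members (above the line) and of the summed CPM of 10 marker lists (below it) in each library, relative to the control mean. Gdf10, Bmp7, Fst, Bmp5 and Id2 are below 0 in all mutant libraries, as are the tendon and ligament, erythroid, epidermis, and joint and articular sums. The joint and articular sum is also at -0.5 in control replicate 3, so its groups overlap, as do those of Id2. The chondrocyte sum spans -0.61 in control replicate 3 to 0.54 in mutant replicate 1.

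The size of the Gdf10 estimate changed little between settings, but its call was not always kept. The plot of fold changes by setting compares the 8 members when the model, the scaling, the filter on low counts or the set of libraries was altered. Over the 6 settings that kept all libraries, Gdf10 ran from -0.68 to -0.66, Bmp7 from -0.82 to -0.80, Fst from -0.53 to -0.51 and Inhbb from 0.64 to 0.66. Gdf10 passed the adjusted threshold in 5 of these 6, and not with the replicate number as a block. It passed in 0 of the 6 fits with a library left out. In those fits 3 to 17 of all genes passed, against 32 with all libraries, so the loss was not particular to Gdf10. With 1 library left out the ranges were -0.94 to -0.61 for Bmp7, -0.63 to -0.44 for Fst, 0.56 to 0.78 for Inhbb, 0.21 to 0.33 for Smad6 and 0.15 to 0.30 for Tgfbr3. None of the 8 crossed 0 in any setting. They were picked by unadjusted p in these same libraries, so a kept sign was close to fixed in advance.

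**Figure D5:**
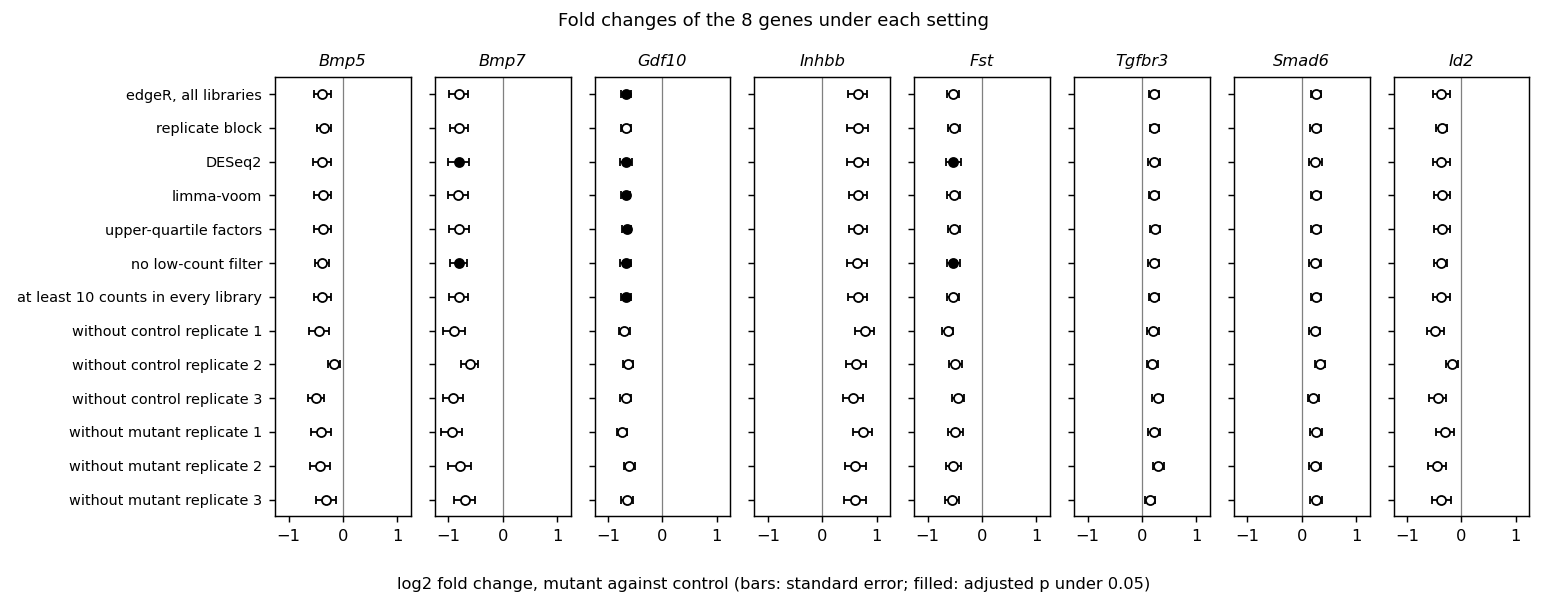
Log2 fold change, mutant minus control, of the 8 members under each processing setting and with each library left out; bars are the standard error, and filled points have an adjusted p under 0.05. Bmp5 and Id2 moved to -0.17 without control replicate 2, and Gdf10 stayed between -0.74 and -0.61.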

How the data were processed

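RNA from growth plate cartilage was made into stranded, poly(A)-selected libraries and sequenced as 50-base single reads. The authors trimmed reads with Trim Galore 0.6.4, aligned them to GRCm38 with STAR 2.6.1d and counted exon reads per Ensembl gene with featureCounts 1.6.4, without regard to strand. The deposited values are raw counts, 1 file per library. The authors' own test used DESeq2 1.28.1 with litter and genotype. Litters are not in the labels, so genotype alone was modelled here, in edgeR 4.0.16 (R 4.3.3) with TMM factors, full library totals and filterByExpr defaults (minimum count 10, minimum total 15), and a gene was called at an adjusted p under 0.05. The biological coefficient of variation was 0.131. The protocol text also mentions an age of 2 months, but the age label, embryonic day 18.5, was used. All members are named. Those with an unadjusted p under 0.05 or groups that do not overlap, and the one with the highest RPKM of each role, are given in full. Of the other pathway genes, those with p under 0.01 in a role, or else the 2 with the lowest p, are given. Cnmd is listed under the older symbol Lect1. The members, gene lists and marker lists were chosen with earlier results of these data known. Promoters came from RefSeq (GRCm38.p6). Alternatives were a replicate block, DESeq2 1.42.0, limma-voom (limma 3.58.1), upper-quartile factors, other count filters and each library left out.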

Additional observations from a re-analysis of the deposited data

How the results depend on the processing

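The number of genes past the threshold was 32 with edgeR and all libraries, 187 with DESeq2, 19 with limma-voom, 259 of 28686 with no low-count filter and 3 to 17 with a library left out. The number of members past it was 1 (Gdf10), 3 with DESeq2 and 3 with no low-count filter (Bmp7, Fst and Gdf10 in both), and 0 in each fit with a library left out. With a library left out, 6 to 7 members had an unadjusted p under 0.05, against 5.64% to 9.76% of all genes in the same fits. Without control replicate 2 these were 7 members (8.39% of all genes), with Bmp6 and Gdf5 among them and without Bmp5, Id2 and Tgfbr3. Of the other pathway genes, Sost alone passed with no low-count filter (1 gene). The labels do not say whether libraries with the same replicate number are paired. Deviations from the group means correlated at -0.18, -0.01 and -0.18 between such libraries. These values were taken over all genes tested with 3 libraries per group, and they cannot exclude shared litters. With the replicate number as a block, 3 genes and 0 members passed, Gdf10 had an adjusted p of 0.136, and Bmp4 had a log2 fold change of -0.00. The share of calls that were higher in mutants was 28.1% with TMM, 66.7% with the block and 36.8% with limma-voom. Signs turned for genes near 0 when a library was left out: Bmp4 (-0.07 to 0.12), Smad7 (-0.06 to 0.11) and Tgfbr2 (-0.09 to 0.03). What caused these shifts was not tested. Gdf15 had too few reads to test, and Gdf7 and Bmp8a had wide 95% intervals (-1.73 to 0.60 and -0.62 to 1.35) beside control coefficients of variation of 68.9% and 49.0%. Over the named genes, with another setting and all libraries, 160 values had the same sign and the same call, 5 passed it, 1 lost it and 1 reversed. With a library left out 153 had both, 6 lost the threshold and 9 reversed. Of the named genes Gdf10 alone passed with edgeR and all libraries, so for the others the same call means not passing. Agreement on the call was thus close to fixed in advance. Amh had no value under the filter of at least 10 counts in every library.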
